A study of Mus musculus with 12 samples.

Results

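The comparison described here was the difference between mutant and control mice after the 2 brain regions of each mouse had been averaged. All 12 arrays of the series entered it. They came from 6 mice, each of which gave 1 basal forebrain array and 1 cerebral cortex array, so that 3 mutant values stood against 3 control values for every gene. The mice labelled cDKO carried a Cre recombinase driven by Chat, the gene of the acetylcholine-making enzyme, and were Psen2 -/-. The mice labelled Con had no Cre and were Psen2 +/-, so they kept 1 working Psen2 allele and were not wild type. All 6 mice shared a floxed allele of another gene, which Cre can cut only in cells that express Chat, whereas Psen2 was missing from every cell of the cDKO mice. The Cre itself was present only in the cDKO group. All mice were 2 months old and were labelled male. They were killed by cervical dislocation, and the dissected tissue was snap-frozen. The labels name separate animals, so the replicates are mice, and they give no other source of the spread between them. The slide of each array is in the file headers and is described below.

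Psen2 encodes presenilin 2, a catalytic subunit of gamma-secretase, the membrane protease that releases amyloid beta from APP and the intracellular domain of Notch. Cholinergic neurons of the basal forebrain send their axons to the cortex and are a minority of the cells in either tissue. Whole dissected tissue also holds vessels, meninges and whatever blood remains in them, so transcripts of blood cells are read beside those of neurons and glia. In such samples a change in the number of cells of a type and a change in their RNA per cell cannot be told apart.

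Each level below is a log2 spot intensity from which the array's 75th percentile was subtracted, averaged over both regions of a mouse, and each difference is cDKO minus Con on that log2 scale. Between 68.9% and 75% of the probes of an array were well above background. Region markers read as labelled, since all 11 basal forebrain and striatum genes and all 10 cortex genes separated the 6 arrays of one region from the 6 of the other. Against their male label, cDKO mice 1 and 3 read Xist, the RNA that silences an X chromosome, at -1.85 and -1.93. The other 4 mice lay between -8.51 and -7.33, and on both arrays of cDKO mice 1 and 3 Ddx3y, Eif2s3y and Uty, which lie on the Y chromosome, were at background, while Kdm5d, also Y-linked, read -0.47 and -0.58 there, within the range of the other 4 mice (-0.63 to -0.17). Results without these 2 mice stand beside the counts. The arrays lay on 2 slides. All basal forebrain arrays and the cortex of cDKO mice 1 and 2 were on slide 1, and the cortex of cDKO mouse 3 and of the 3 Con mice was on slide 2. Slide and genotype were therefore mixed in part in the cortex, while the basal forebrain comparison fell within 1 slide.

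Of 26773 genes tested, 42 passed at an adjusted p under 0.05 in limma, which is 0.157% of them. In cDKO mice 38 rose (0.142%) and 4 fell (0.0149%). The rises were led by genes of B cells, neutrophils and red cells: 24 of the 42 belonged to the 6 lists of blood cell genes, with 8 in the B cell list, 8 in the erythroid list, 6 in the neutrophil list and 1 each in the monocyte and platelet lists. The 4 that fell were Psen2, its chromosome 1 neighbours Ifi205 and 6330418B08Rik, and Inhba. Genes without a symbol in the array annotation made up 4 of the 38 rises and 1 of the 4 falls. At an unadjusted p under 0.05 there were 2892 genes (10.8%), of which 1188 were higher and 1704 lower in cDKO mice. The median difference over all genes tested was -0.02, and 44% of the differences were positive.

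For all 42 genes the 3 cDKO and the 3 Con mouse means did not overlap, and the same held in each region taken alone. Over all genes tested, 16.7% had no overlap on the mean of both regions, 6.44% with cDKO higher and 10.3% with cDKO lower, and the share was 9.91% in basal forebrain and 21.8% in cortex. The absence of overlap in the cortex means that cDKO mouse 3 lay beyond all 3 Con mice of the same slide for each of the 42. With a term for slide over the 12 arrays and mouse as a random block, 38 genes passed, 28 of them among the 42. The 14 that did not were Retnlg, Alas2, 5 globin genes, Etnppl, Rsad2, Itih3, Bcl3, Nfe2, Cytip and the chromosome 3 transcript. The count moved with single mice: 17 genes passed without cDKO mouse 2, 192 without cDKO mouse 3, 22 without Con mouse 1, 70 without Con mouse 2 and 22 without Con mouse 3. Without cDKO mouse 3, the cDKO cortex arrays were all on slide 1 and the Con cortex arrays all on slide 2. Of the 42, 10 passed in each of the 6 fits that left out 1 mouse, namely Psen2, Ms4a1, Mcpt8, Fcrla, Apol11b, Ahsp, Slc4a1, Cd79b and the probes of Iglc3 and of Ighd described with the B cell genes. Leaving out both mice with high Xist left cDKO mouse 2 against 3 Con mice, whose lone value was taken to vary like the Con values. There, Psen2 differed by -1.92, Slc4a1 by 2.42, Ms4a1 by 5.5 and Hbb-bt by 1.96. All 42 kept their direction, which was fixed in advance because their mouse means did not overlap. The cortex array of cDKO mouse 2 was on slide 1 and those of the Con mice were on slide 2.

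The size of many differences depended on how background was handled. With normexp background correction, which adds an offset and compresses dim signals, all 42 kept their direction and 32 their call, but 24 differences shrank by more than 1.5 times. The calls lost were those of Fcrla, Cxcr5, Retnlg, Ifi205, Inhba, Cytip, Nfe2, E2f2, Bcl3 and an Ighd probe (ENSMUST00000192250). Bright genes such as S100a9 (3.36 and 3.19 under normexp), Hbb-bt (2.10 and 2.09) and Psen2 (-1.99 and -1.83) moved little. Of the 42, 10 met the requirement on dim probes only through cDKO arrays and could enter only as rises, and Ifi205 only through Con arrays. Over all genes tested, 363 entered only through cDKO arrays and 1037 only through Con arrays.

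**Figure D1:**
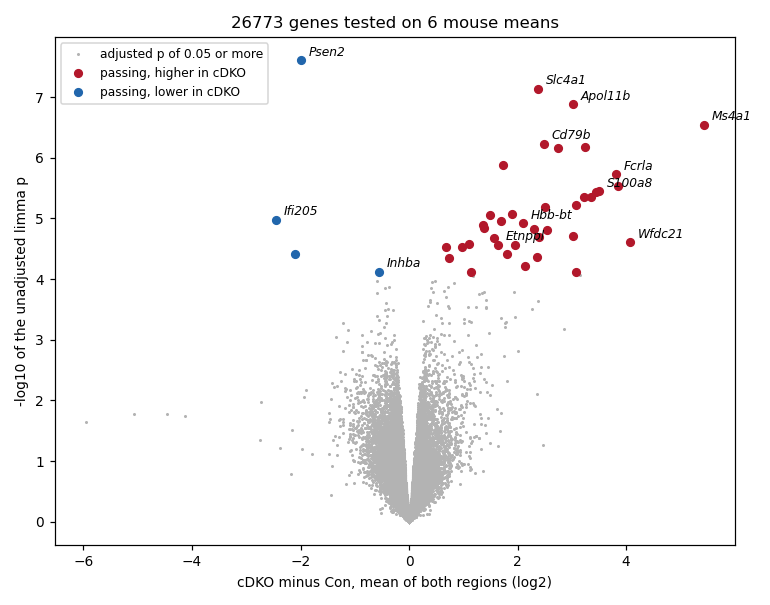
Difference between cDKO and Con mice in log2 (horizontal axis) against the minus log10 of the unadjusted limma p (vertical axis) for 26773 genes on 6 mouse means. The 38 passing rises (red) lie to the right, up to 5.43 for Ms4a1, and the 4 passing falls (blue) include Psen2, which has the smallest p of all genes. Points left of -4 are genes of the Y chromosome, whose cDKO values differ between mice.

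Psen2, the deleted gene, had the smallest p. It read -1.78, -1.51 and -1.46 in cDKO mice 1, 2 and 3, against 0.40, 0.37 and 0.44 in the Con mice. Each cDKO mouse lay far below each Con mouse, and the Con mice, with 1 working allele, spanned a narrow range. The difference was -1.99 ± 0.10 (SE, n = 3 and 3), a level 3.98-fold lower in cDKO mice (limma adjusted p = 0.000662), and it was -1.87 in basal forebrain and -2.12 in cortex. The probe, at chr1:182157610-182157669 in mm9, stayed well above background on all 6 cDKO arrays. A second Psen2 probe, at chr1:182169008-182169067, was well above background on 1 of 6 cDKO and 6 of 6 Con arrays and differed by -3.37. The labels do not say which part of the gene was removed, so whether either probe lies in it is not known.

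Ifi205, an interferon-inducible gene of the p200 family, lay near background. Its mouse means were -8.69, -8.52 and -8.73 in cDKO and -6.28, -5.94 and -6.36 in Con mice. No cDKO array and 3 of the 6 Con arrays were well above background. Where no array of a genotype measured a probe, the fold is a bound, taken against the dimmest signal that counted as well above background on each array. The bound for Ifi205 was at least 1.41-fold lower in cDKO mice (limma difference -2.45 ± 0.26, adjusted p = 0.0147). Under normexp the difference was -0.24 (limma adjusted p = 0.343), and the call was also lost without cDKO mouse 1, cDKO mouse 2, Con mouse 1 or Con mouse 3. The transcript 6330418B08Rik, named because it was 1 of only 4 falls, read -5.26, -4.56 and -4.56 against -2.62, -2.28 and -3.14. Its groups were separate, with a difference of -2.11 ± 0.27 (limma adjusted p = 0.0289) and -1.17 under normexp, and the call was lost without cDKO mouse 1, cDKO mouse 2 or Con mouse 1.

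The probes of Ifi205 (chr1:175942245-175942304) and of 6330418B08Rik (chr1:176992099-176992158) lie 6.22 and 5.17 Mb before the Psen2 probe in mm9. Among genes with a probe position, chromosome 1 held 5.99% of those tested and 5 of the 40 that passed. Beside 3 falls, these were the rises Fcrla, 9.31 Mb before Psen2, and Fcmr, 49.4 Mb before it. Within 10 Mb of the Psen2 probe, 250 genes were tested and 4 passed. The mouse means did not overlap for 75 of these 250 genes (30.0%, against 16.7% over all genes), and their median difference was -0.02. Within 1 Mb the share without overlap was 14.6% (6 of 41 genes). The genetic background of the 2 groups around the Psen2 allele was not tested.

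Inhba encodes the beta A subunit of activins, secreted ligands of the TGF-beta family that are made by active neurons. It read 0.66, 0.49 and 0.45 in cDKO mice and 1.13, 1.02 and 1.1 in Con mice, again without overlap. The drop was smaller than for the other 3 falls, at -0.55 ± 0.08 or 1.47-fold (limma adjusted p = 0.0491). It was -0.80 in basal forebrain and -0.31 in cortex (limma adjusted p of the difference between regions 0.546). Inhba passed only without Con mouse 2 among the fits that left out 1 mouse, and its adjusted p reached 0.292 in the others.

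Further down the list of lower genes, 7 with symbols came closest to the threshold without passing it. Aqp4, the water channel of astrocyte endfeet, was at -0.60 ± 0.09 (limma adjusted p = 0.0621). Rgs7, a regulator of G protein signalling, was at -0.37 and Nts, the neuropeptide neurotensin, at -0.45 (both limma adjusted p = 0.072). Ppox, an enzyme of haem synthesis, was at -0.59 (limma adjusted p = 0.0784). Cdk5r2, an activator of the kinase Cdk5, was at -0.42, Arf4, a small GTPase of vesicle traffic, at -0.38 and Wls, the carrier of Wnt ligands, at -0.44 (limma adjusted p from 0.101 to 0.111). On the probes used, none of the 7 had overlapping mouse means, but they were picked by small p. Over all genes tested, 10.3% were lower in cDKO mice without overlap. Aqp4, Wls, Ppox and Rgs7 had other probes, well above background on 6 of 6 cDKO and 6 of 6 Con arrays. Those of Aqp4 differed by -0.51 and -0.04, that of Wls by -0.05 and that of Ppox by -0.16. The fall of these genes therefore depended on the probe. The other Rgs7 probes differed by -0.48 and -0.4, close to the probe used. Rgs7, Ppox and Cdk5r2 are also on chromosome 1, with probes that start at 176989640, 173207452 and 74903700 in mm9. Of the other Rgs7 probes, that at chr1:176989868-176996748 spans the position of the 6330418B08Rik probe (chr1:176992099-176992158).

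**Figure D2:**
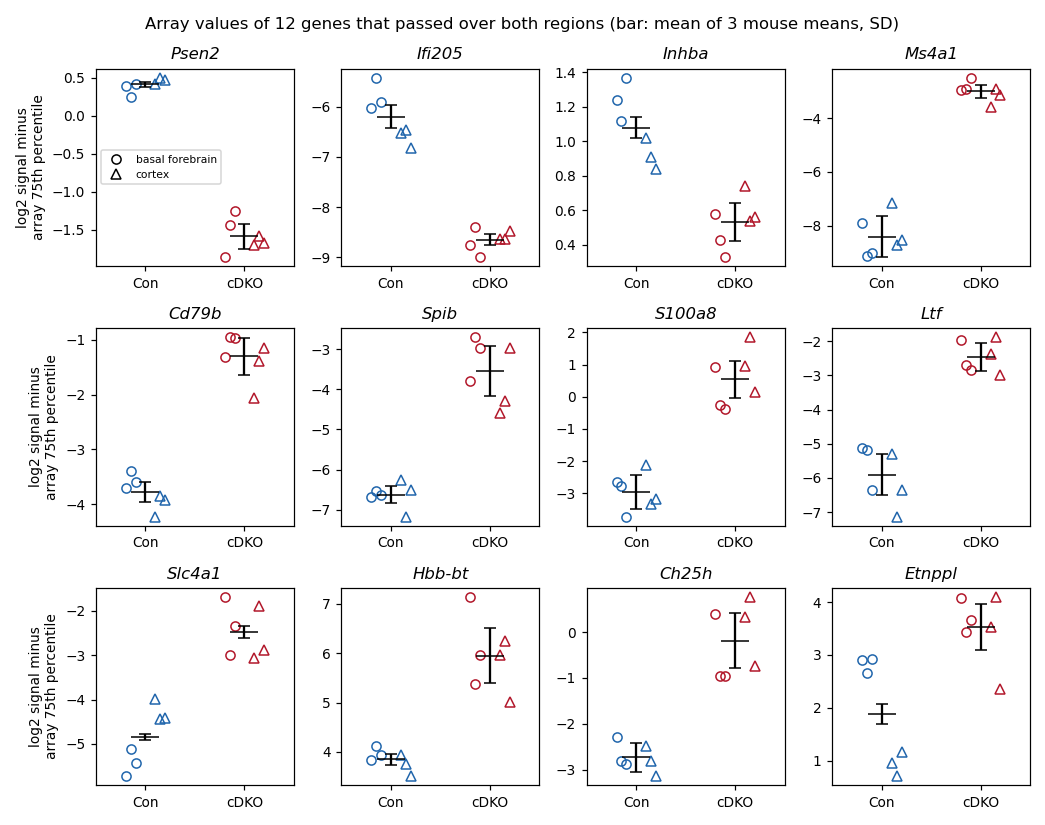
Array values (log2 intensity minus the 75th percentile of the array) of 12 genes that passed, for 3 Con (blue) and 3 cDKO (red) mice, with circles for basal forebrain, triangles for cortex, and bars for the mean and SD of the 3 mouse means. Within each region the 2 genotypes do not overlap for any of the 12 genes. In Con mice the distance between regions is wide for Etnppl and narrow for Cd79b, while in cDKO mice the regions overlap for Etnppl.

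Among 21 B cell genes tested, 8 rose and none fell. Of the 21, 16 were higher in cDKO mice (44% over all genes), with a median difference of 0.44 beside -0.02 over all genes. Ms4a1, Fcrla and Cxcr5 were tested only because cDKO arrays measured them, so these 3 of the 8 could enter only as rises. Ms4a1, the B cell surface protein CD20, read -3.25, -2.91 and -2.80 in cDKO mice and -7.54, -8.93 and -8.77 in Con mice. On this probe the groups lay far apart, and no Con array was well above background while all 6 cDKO arrays were. The probe was at least 14.2-fold higher (limma difference 5.43 ± 0.37, adjusted p = 0.0019), and the call held without each mouse in turn. The 2 probes of Ms4a1 disagreed in size. The other one, at chr19:11324334-11324393, was well above background on 5 of 6 Con and 4 of 6 cDKO arrays and differed by 0.15. Under normexp the first probe differed by 1.71 ± 0.09 (limma adjusted p = 0.000241).

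Cd79b, a signalling chain of the B cell receptor, was measured on all 12 arrays. It read -1.69, -1.17 and -1.05 in cDKO mice against -3.97, -3.62 and -3.76 in Con mice. All cDKO mice were higher, with the lowest value in cDKO mouse 1, and the difference of 2.48 ± 0.18 was 5.58-fold (limma adjusted p = 0.00264). It was 2.49 in basal forebrain and 2.47 in cortex, and 1.83 under normexp. Fcrla, an intracellular Fc receptor-like protein of B cells, read -5.70, -5.00 and -4.53 in cDKO mice and was below that level on all Con arrays, which made it at least 3.34-fold higher (limma adjusted p = 0.0056). Cxcr5, the chemokine receptor that guides B cells into follicles, was measured on 5 of 6 cDKO arrays and no Con array and was at least 2.24-fold higher (limma adjusted p = 0.00863). Its call was lost without cDKO mouse 2. Under normexp Fcrla differed by 0.65 and Cxcr5 by 0.50, and neither passed (limma adjusted p = 0.0607 and 0.0591).

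Other passing B cell genes included Spib, a transcription factor of the ETS family, at 3.08, Ly6d, a surface marker of early B cells, at 2.50 and Fcmr, the receptor for immunoglobulin M, at 1.57 (limma adjusted p from 0.0106 to 0.0202). Under normexp these were 1.21, 1.31 and 0.88, all still passing. Spib and Ly6d lost their call without cDKO mouse 2, and Fcmr without cDKO mouse 1, Con mouse 1 or Con mouse 3. Among the list's members that did not pass, Vpreb3, a chaperone of the B cell receptor, was at 2.38 and Pou2af1, a B cell coactivator, at 1.76. The transcription factors Pax5 at 0.09 and Ebf1 at -0.04 and the receptor chain Cd79a at 0.29 had small differences. On 3 of the list's 21 probes, no Con array was well above background. The mean over the list was -3.21, -2.87 and -2.65 in cDKO mice 1 to 3 and between -4.37 and -4.28 in Con mice. It includes Ms4a1, Fcrla and Cxcr5, which entered only through cDKO arrays, and no mean without them was taken. The part of B cells in the vessels or meninges of these samples in the result was not tested.

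Immunoglobulin transcripts without a symbol were also among the passing rises. They were taken from the passing genes after their values were seen, so their direction is no check on the B cell list. The directions of other immunoglobulin probes on the array were not counted. A probe that the array annotation describes as immunoglobulin lambda constant 3 (ENSMUST00000200235) read -2.99, -2.11 and -2.17 in cDKO mice and -5.72, -5.80 and -5.50 in Con mice, a 9.5-fold rise (difference 3.25 ± 0.24, limma adjusted p = 0.00264). The groups did not overlap on it, and its difference under normexp was 1.74. Probes described as immunoglobulin heavy constant delta (ENSMUST00000194162 and ENSMUST00000192250) rose by 1.73 and 1.70 (limma adjusted p = 0.00442 and 0.0147). Under normexp they were at 1.13 and 0.52, the second without passing. The second of them also lost its call in 4 of the 6 fits that left out 1 mouse (cDKO mouse 1, cDKO mouse 2, Con mouse 1 or Con mouse 3).

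Promoter windows (the 250 bases before a RefSeq gene start, GRCm38.p6) were matched for 3 of the 8 passing B cell genes, namely Fcrla, Spib and Fcmr. Exact matches on both strands were counted for the octamer ATTTGCAT and for the ETS core GGAAGT. These letters were not in the 3 windows. Over 32851 windows of the same length, 1.6% held the octamer and 19.7% the ETS core.

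Among 19 neutrophil genes tested, 6 rose and none fell. Of the 19, 18 were higher in cDKO mice (44% over all genes), with a median difference of 1.18. Of the 6 rises, 2 (Ngp and Wfdc21) entered only through cDKO arrays. S100a8 and S100a9 encode the calcium-binding pair calprotectin. S100a8 read 0.95, 0.79 and -0.12 in cDKO mice and -2.38, -3.04 and -3.44 in Con mice. cDKO mouse 3 was the lowest of its group and still lay above every Con mouse. The rise was 3.50 ± 0.32 or 11.3-fold (limma adjusted p = 0.00806), and S100a9 rose by 3.36 ± 0.32 (limma adjusted p = 0.00863).

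Ltf, the iron-binding granule protein lactoferrin, read -2.16, -2.28 and -2.92 in cDKO mice and -5.22, -6.15 and -6.35 in Con mice. Its groups were also separate, with cDKO mouse 3 nearest to the Con mice, and it rose by 3.45 ± 0.32 (limma adjusted p = 0.00806), or 1.74 under normexp. Wfdc21, a secreted whey acidic protein family member, was well above background on 1 of 6 Con arrays. Its difference was 4.08 ± 0.49 (limma adjusted p = 0.0227), and 1.18 under normexp (limma adjusted p = 0.031). Ngp, a neutrophil granule protein, rose by 3.02 and Retnlg, a secreted resistin-like protein, by 3.08 (limma adjusted p = 0.0201 and 0.0491). Under normexp they were at 1.03 and 1.62, and Retnlg did not pass (limma adjusted p = 0.0562), nor did it with the slide term (limma adjusted p = 0.0526). The calls of S100a8, S100a9 and Ltf were lost without cDKO mouse 2 (limma adjusted p up to 0.0613), and those of Wfdc21, Ngp and Retnlg without cDKO mouse 1, cDKO mouse 2 or Con mouse 3.

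Lcn2, an iron-sequestering granule protein that reactive astrocytes also make, came just outside the threshold at 3.15 ± 0.44 (limma adjusted p = 0.0524), as did Mpo, the granule peroxidase, at 1.18 (limma adjusted p = 0.0545). Elane and Prtn3, proteases of immature granulocytes, were at -0.11 and 0.02. The mean over the neutrophil list was -1.98, -1.93 and -2.74 in cDKO mice 1 to 3 and between -4.11 and -3.70 in Con mice. Each of the list's probes was well above background on at least 1 Con array, but 3 of the 19 genes entered only through cDKO arrays. No mean without these 3 was taken. The part of circulating neutrophils in the result was not tested.

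Mcpt8, a protease of basophils, stood outside these lists. It read -4.88, -4.15 and -4.92 in cDKO mice and -8.76, -8.87 and -7.87 in Con mice. No Con array was well above background, and the rise was at least 4.48-fold (limma adjusted p = 0.00792), with the call held without each mouse in turn. Mcpt8 was tested only because cDKO arrays measured it, so it could enter only as a rise. Its difference was 3.85, and 0.77 under normexp (limma adjusted p = 0.021).

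Among 15 erythroid genes tested, 8 rose and none fell. Of the 15, 13 were higher in cDKO mice (44% over all genes), with a median difference of 1.36, and Ahsp entered only through cDKO arrays. Slc4a1, the anion exchanger band 3 of the red cell membrane, had the smallest p among the rises. It read -2.37, -2.44 and -2.61 in cDKO mice and -4.86, -4.78 and -4.93 in Con mice. The mouse means of both groups were tight and well apart, and the difference was 2.38 ± 0.14 or 5.21-fold (limma adjusted p = 0.000968). In basal forebrain it was 3.09 ± 0.35 and in cortex 1.68 ± 0.31, passing in neither (limma adjusted p = 0.106 and 0.244). Under normexp it was 1.42, and with the slide term 2.55 ± 0.42 (limma adjusted p = 0.0465). Single cDKO arrays spread more widely than the mouse means, from -3.00 to -1.68 in basal forebrain and from -3.06 to -1.88 in cortex.

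Ahsp, the chaperone of free alpha globin, rose by 2.75 ± 0.21 (limma adjusted p = 0.00264) and was well above background on 2 of 6 Con arrays, with 0.83 under normexp. Alas2, the first enzyme of haem synthesis in red cells, rose by 2.39 ± 0.28 (limma adjusted p = 0.0202). The beta globin gene Hbb-bt read 6.55, 5.81 and 5.49 in cDKO mice against 3.88, 3.94 and 3.73 in Con mice. The groups did not overlap and cDKO mouse 1 was the highest, for a difference of 2.10 ± 0.23 or 4.28-fold (limma adjusted p = 0.0153).

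The other beta globin probes rose by 1.95 (Hbb-b2) and 2.13 (Hbb-b1), and the alpha globin probes by 1.38 (Hba-a1) and 1.36 (Hba-a2), with limma adjusted p from 0.0153 to 0.042. The globin genes of each pair are near-identical copies, so their probes may read each other's transcripts. The calls of the 5 globin genes and Alas2 were lost without cDKO mouse 2 or Con mouse 3, and, apart from Hba-a2, without Con mouse 1. With the slide term and mouse as a block none of these 6 passed (limma adjusted p from 0.0526 for Hbb-bt to 0.15 for Hbb-b1), although the differences stayed between 1.28 and 2.22. Klf1, the transcription factor of red cell precursors, was at 0.17, and Car1, a carbonic anhydrase of red cells, at -0.29. The mean over the erythroid list, with Ahsp included, was 1.33, 1.04 and 0.90 in cDKO mice and between -0.08 and -0.01 in Con mice. The labels do not mention perfusion, and the part of blood left in the tissue in these results was not tested.

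Among 14 T and NK cell genes none passed, the median difference was 0.09, and the largest difference was 1.41, of Cd2, an adhesion receptor (limma adjusted p = 0.111). The coreceptor chain Cd3e was at -0.17. Among 15 genes of monocytes and perivascular macrophages, Plac8 rose by 1.89 ± 0.20 (limma adjusted p = 0.0133), losing its call without cDKO mouse 2 or Con mouse 1, and the list's median was 0.15. Chil3, a chitinase-like protein also in the neutrophil list, was at 2.86 without passing. Among 11 platelet genes, Ppbp, a platelet chemokine, rose by 1.5 ± 0.16 (limma adjusted p = 0.0133), losing its call without cDKO mouse 1 or Con mouse 1, and the median was 0.08. Under normexp Plac8 was at 1.12 and Ppbp at 0.87, both passing.

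**Figure D3:**
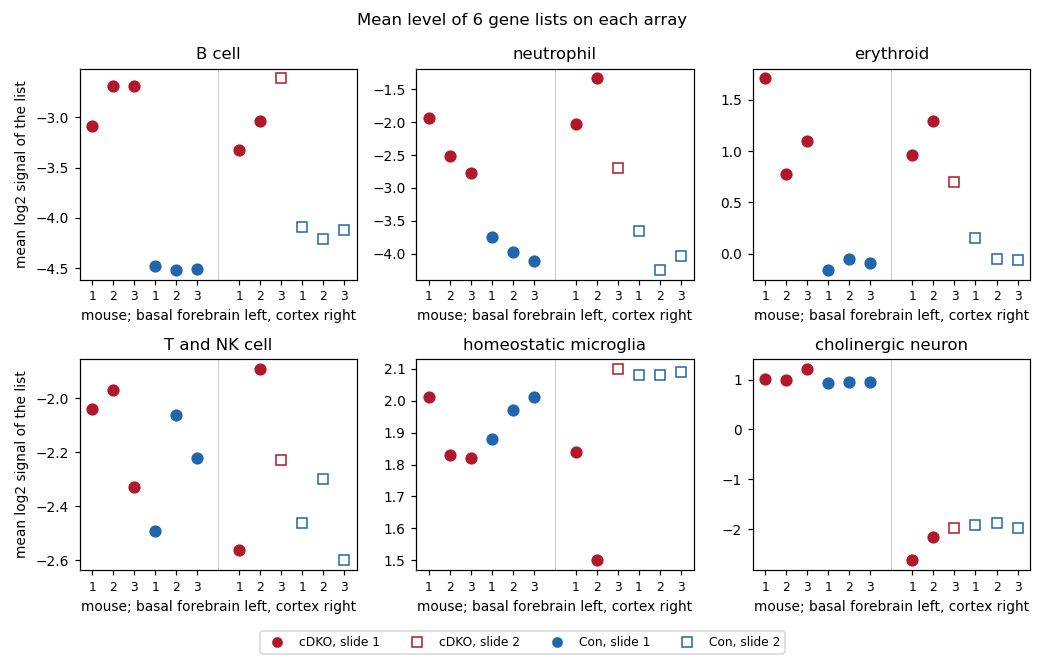
Mean log2 level of 6 gene lists on each array, for mice 1 to 3 of each genotype in basal forebrain (left of the line) and cortex (right of the line), with filled circles for slide 1 and open squares for slide 2. The B cell, neutrophil and erythroid lists are higher in all cDKO mice in both regions, also within a slide, whereas the T and NK cell list overlaps between genotypes. The B cell, neutrophil and erythroid means include 3, 3 and 1 genes that entered only through cDKO arrays.

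Several rises lay outside the lists of blood cells. Apol11b, a member of the apolipoprotein L family, read -3.00, -3.38 and -3.42 in cDKO mice and -6.13, -6.32 and -6.41 in Con mice. These mouse means formed tight groups with no overlap, and the difference of 3.02 ± 0.18 was 8.1-fold (limma adjusted p = 0.00117). The call held without each mouse in turn, but the gene was tested only because cDKO arrays met the requirement on dim probes. The difference was 1.31 under normexp, and 4 of 6 Con arrays were well above background. Ch25h, the enzyme that makes 25-hydroxycholesterol, read 0.35, -0.09 and -0.84 in cDKO mice and -2.39, -2.81 and -3.00 in Con mice. It rose by 2.54 ± 0.28 or 5.82-fold (limma adjusted p = 0.0165), and the call was lost without cDKO mouse 2 or Con mouse 3.

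Etnppl, a phosphoethanolamine lyase of astrocytes, rose by 1.64 ± 0.20 (limma adjusted p = 0.0229). Its difference was 0.90 in basal forebrain and 2.39 in cortex (limma adjusted p of the difference between regions 0.546). In the cortex cDKO mouse 3, on the slide of the Con mice, read 2.36, below 3.52 and 4.10 in cDKO mice 1 and 2 and above 0.95, 0.71 and 1.17 in the Con mice. Its other probes differed by 0.70 and 1.47. Its call was lost with the slide term (difference 1.07, limma adjusted p = 0.0545) and in 4 of the 6 fits that left out 1 mouse (cDKO mouse 1, cDKO mouse 2, Con mouse 1 or Con mouse 3). Itih3, a hyaluronan-binding heavy chain, rose by 0.68, Rsad2, the antiviral enzyme viperin, by 0.97, Bcl3, a nuclear partner of NF-kB, by 1.14 and the cell cycle factor E2f2 by 0.74 (limma adjusted p from 0.0234 to 0.0491). Nfe2, a transcription factor of megakaryocytes and red cell precursors, rose by 2.36 and Cytip, a scaffold protein of leukocytes, by 1.81 (limma adjusted p = 0.0315 and 0.0289). Nfe2 entered only through cDKO arrays, was well above background on 1 of 6 Con arrays and was at 0.46 under normexp (limma adjusted p = 0.207). Cytip was at 0.73 under normexp (limma adjusted p = 0.0634), and its other probe, measured on all 12 arrays, differed by 0.04. An unnamed transcript of chromosome 3 rose by 1.11 ± 0.13 (limma adjusted p = 0.0229), losing its call without cDKO mouse 1, cDKO mouse 2, Con mouse 1 or Con mouse 3. With the slide term Itih3, Rsad2, Bcl3, Nfe2, Cytip and that transcript did not pass (limma adjusted p from 0.135 for Cytip to 0.493 for Rsad2), and E2f2 did. Each of the calls of Itih3, Rsad2, Bcl3, E2f2, Nfe2 and Cytip was lost without at least 3 of the mice in turn, cDKO mouse 1, cDKO mouse 2 and Con mouse 3 among them, as were Con mouse 1 for all but Itih3 and Con mouse 2 for Bcl3 and E2f2.

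Taken region by region, the same 6 mice gave fewer calls. In basal forebrain 7 genes passed (0.0261%), namely Ms4a1, Cd79b, Fcrla, Cxcr5, Spib, the Iglc3 probe and Psen2. In cortex 3 passed (0.0112%), namely Psen2, Ms4a1 and 6330418B08Rik. Thus 34 of the 42 genes passed in neither region alone. The median SE of a difference was 0.12 for the mean of both regions, 0.15 in basal forebrain and 0.14 in cortex. The 3 comparisons share their mice, so the regions are no replicates of each other. In basal forebrain the count was 0 without cDKO mouse 3 or Con mouse 3, 1 without Con mouse 1 and 27 without Con mouse 2. In cortex it was 7 without cDKO mouse 2 and 1 without Con mouse 2 or Con mouse 3, and it reached 9619 without cDKO mouse 3, which leaves all cDKO cortex arrays on slide 1 and all Con cortex arrays on slide 2. In that setting, and also without cDKO mice 1 and 3, slide and genotype cannot be told apart in the cortex.

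The difference between regions was tested on the basal forebrain minus cortex value of each mouse. No gene passed in limma (0% of 26773), and 2371 genes had an unadjusted p under 0.05 (8.86%). Without cDKO mouse 3, where slide and genotype cannot be told apart in the cortex, the count was 994. All 42 genes had the same direction in both regions, and 24 had the larger size in basal forebrain. At an unadjusted p under 0.05 the regions differed for 12 of the 42, none after adjustment (smallest adjusted p 0.546). Ly6d had the smallest p of these, with a rise of 3.67 in basal forebrain and 1.33 in cortex, a gap of 2.34 ± 0.32 (limma adjusted p = 0.546). Its Con arrays read -6.22, -7.42 and -6.65 in basal forebrain but -2.73, -3.25 and -2.87 in cortex. The cDKO arrays read -3.60, -2.84 and -2.86 in basal forebrain and -1.82, -1.77 and -1.26 in cortex, above the Con arrays of the same region in each case.

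**Figure D4:**
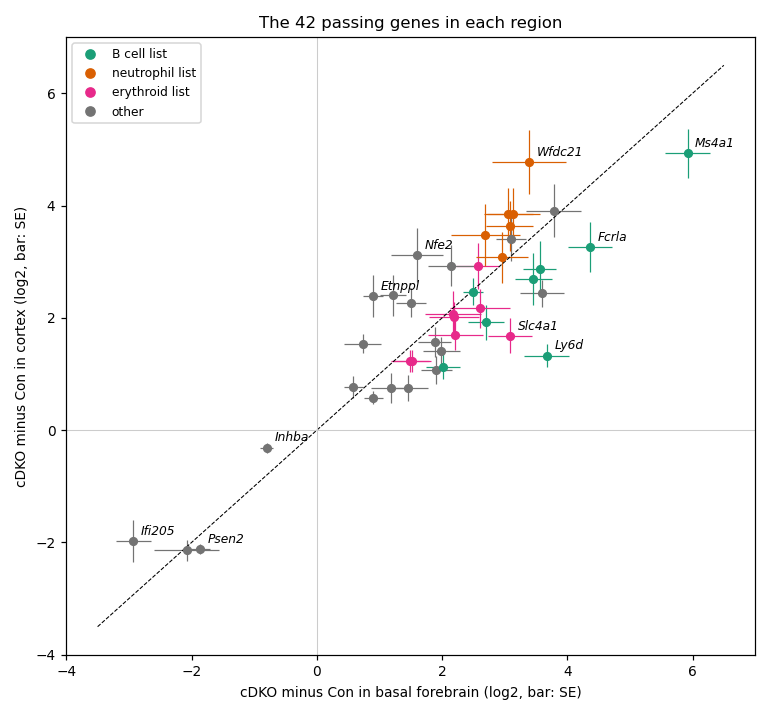
Difference between cDKO and Con mice in basal forebrain (horizontal axis) and in cortex (vertical axis), in log2 with SE bars, for the 42 genes that passed on the mean of both regions. The dashed line marks equal differences, all points lie on the same side of 0 in both regions, and Ly6d (3.67 and 1.33) and Nfe2 (1.60 and 3.12) lie far from the line.

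Lists of brain cell and pathway genes held few calls. Among 13 genes of gamma-secretase and APP processing, Psen2 fell and no other passed, with a median difference of -0.10. The protease genes Bace2 (-0.24) and Adam17 (-0.20) and the gamma-secretase subunit Ncstn (-0.14) had no overlap between mice but limma adjusted p of 0.411, 0.457 and 0.507. The share of all genes with cDKO lower and no overlap was 10.3%. None of 18 Notch pathway genes passed, and their median was 0.00. The receptor Notch1 was at 0.43 and the target genes Hes5 and Hes1 at -0.30 and -0.26.

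None of 13 genes of cholinergic neurons passed. Chat, the gene that drives the Cre, read -1.20, -1.05 and -0.85 in cDKO mice and -0.61, -0.17 and -1.12 in Con mice. These values overlapped, with a difference of -0.40 ± 0.22 (limma adjusted p = 0.511). The list's median was -0.20 on the mean of both regions, 0.12 in basal forebrain and -0.50 in cortex. In the cortex, cDKO mice 1 and 2 on slide 1 had list means of -2.63 and -2.16, and cDKO mouse 3 on slide 2 had -1.97, beside -1.97 to -1.87 in the Con mice on slide 2.

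None of 19 homeostatic microglia genes passed. The differences were negative for 15 of them, with a median of -0.12, and 6 were lower without overlap between mice. Over all genes tested, 44% of differences were positive and 10.3% of genes were lower without overlap. Trem2, a lipid receptor of microglia, was at -0.31 and Aif1, the marker Iba1, at -0.33 (limma adjusted p = 0.331 and 0.368). In the cortex the list mean was 1.84 and 1.5 in cDKO mice 1 and 2 on slide 1, and 2.10 in cDKO mouse 3 beside 2.08 to 2.09 in the Con mice, all on slide 2. In basal forebrain, all on slide 1, it was 2.01, 1.83 and 1.82 in cDKO mice and 1.88, 1.97 and 2.01 in Con mice. The part of the slide in these values was not tested. Among 30 interferon response genes, Ifi205 fell and Rsad2 rose, 24 differences were negative (44% of all genes were positive), and the median was -0.11. The antiviral genes Gbp3 and Ifit3 were at -0.40 and -0.32 without passing. Among 23 cytokine, chemokine and NF-kB genes only Bcl3 rose, with a median of 0.02. Cxcl1, a chemokine that attracts neutrophils, was at 1.48 and Icam1, an adhesion molecule of activated endothelium, at 0.73 (limma adjusted p = 0.2 and 0.4).

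No gene passed among 14 astrocyte genes (median 0.10), 23 endothelial and mural genes (median 0.07), 18 myelin and oligodendrocyte genes (median -0.13), 18 choroid plexus genes (median 0.17) or 25 synapse genes (median 0.00). Vwf, the adhesion protein of endothelium and platelets, was at 1.42 (limma adjusted p = 0.0967), and Mbp, a major myelin protein, at -0.50 (limma adjusted p = 0.331). Among 18 glucocorticoid-responsive genes 15 were higher (44% over all genes), with a median of 0.17, and none passed, Lcn2 at 3.15 being the highest of them.

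**Figure D5:**
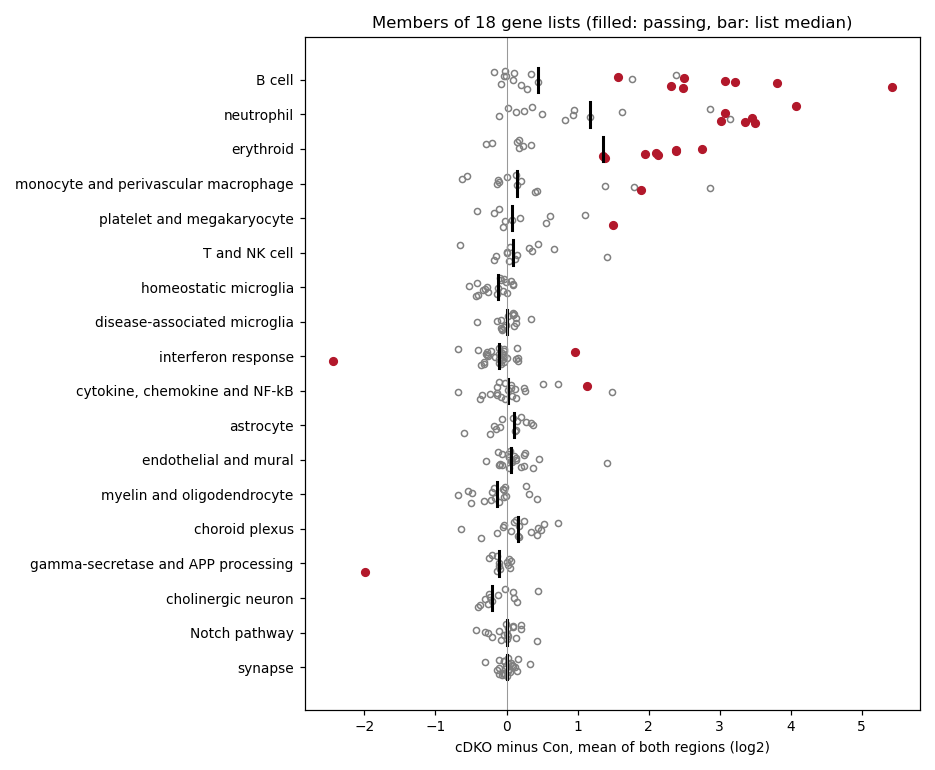
Difference between cDKO and Con mice in log2 for the members of 18 gene lists, averaged over both regions, with filled points for genes that passed and a bar at each list's median. Filled points are concentrated in the B cell, neutrophil and erythroid lists, whose medians were 0.44, 1.18 and 1.36.

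The genes most like Psen2 over the 12 arrays, once each region's mean was subtracted, were Ddx39b, an RNA helicase (Pearson r = 0.947), Necab1, a neuronal calcium-binding protein (r = 0.943), Ifi205 (r = 0.941), Tmem182, a membrane protein (r = 0.931) and Nts (r = 0.925). These values describe 12 arrays of 6 mice, and every such gene follows the genotypes by construction. Their genotype differences were -0.11, -0.25, -2.45, -1.02 and -0.45, and of these only Ifi205 passed.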

How the data were processed

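RNA of 12 brain tissue samples (6 mice, 2 regions each) was hybridised to 1-colour Agilent arrays. Per the file headers, the deposited intensity values are background-subtracted Agilent Feature Extraction signals (version 10.7.1.1, per the submitters' processing notes). The whole-series table deposited by the authors held log2 values of the same arrays after quantile normalization, as judged from the values. Its unnormalized intensity columns, once taken to log2, matched the scanner values within 0.01 for 99.998% of entries.

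Control spots and flagged outliers were left out (37 probes lost all spots, 56568 remained), spots of a probe were averaged, and the 75th percentile of each array was subtracted in log2. For each of 37055 gene names the probe with the highest mean over 12 arrays was used, if all 3 arrays of 1 or more of the 4 groups of genotype and region read it well above background. Both arrays of a mouse were averaged, and limma 3.58.1 in R 4.3.3 (eBayes with trend) tested 3 against 3 mice with Benjamini-Hochberg adjustment over all genes at 0.05. An exact permutation test of 3 against 3 cannot go below 0.1, so none was used. The code was tested on simulated data. Both regions of a mouse were joined by the animal identifier in the labels. Replicate numbers across genotypes mark different animals.

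Named genes were Psen2 and Chat, up to 15 rises and 15 falls by size among passing genes without overlap, lower genes of smallest p up to 10 in all, and up to 4 members of a described list by p, passing over unnamed transcripts; further members are named as examples chosen after their values were seen. Members and lists were chosen with earlier results of these data known. Some genes are not reported here. Probe positions are mm9, as in the array annotation. The number of arrays limits the precision.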

Additional observations from a re-analysis of the deposited data

Results flagged for a closer look

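The mean over 13 cholinergic neuron genes differed in opposite ways between the regions, with every cDKO array above every Con array in basal forebrain (difference 0.13) and every cDKO array below every Con array in cortex (difference -0.34). The basal forebrain minus cortex value was 0.47, and for a list mean this difference was not tested. In the cortex cDKO mouse 3, on the slide of the Con mice, had a list mean of -1.97, equal to the lowest Con mouse when rounded, beside -1.97 to -1.87 in the Con mice.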

How the results depend on the processing

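All 42 genes kept their direction in every alternative that measured them, while the counts moved. Where only mice or a region were left out, the direction was fixed in advance, since the groups did not overlap in either region. For the mean of both regions, the count of 42 became 16 without a filter on dim probes, 22 when a probe had to be well above background on all 12 arrays, 14 without a variance trend, 65 on 12 arrays with mouse as a random block, 7 with basal forebrain alone and 3 with cortex alone. It was 8 without cDKO mice 1 and 3, and 4 without cDKO mice 1 and 2 (chosen after seeing the data), of which 1, Psen2, was among the 42. Leaving out 1 mouse gave 17 to 192. For basal forebrain, the count of 7 became 18 with median scaling, 3 without a filter, 2 with the stricter filter, 3 without a trend, 0 without cDKO mice 1 and 3, 3 without cDKO mice 1 and 2, and 0 to 27 without 1 mouse. For cortex, the count of 3 became 5 with median scaling, 1 without a filter, 6 over every probe, 0 with the mean of a gene's probes, 7609 without cDKO mice 1 and 3, 24 without cDKO mice 1 and 2, and 1 to 9619 without 1 mouse. The difference between regions gave 0 to 994 without 1 mouse. Normexp background correction, quantile normalization and the authors' values gave 33, 42 and 42 for the mean of both regions, and normexp shrank 24 of the 42 differences by more than 1.5 times.

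Replicate numbers mark different animals, and same-numbered mice correlated in their deviations at only 0.062, 0.313 and 0.019, so they were not treated as pairs. With a replicate block, 34 genes passed for the mean of both regions, 0 in basal forebrain and 1 in cortex.

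With 3 mice a genotype, a median SE of 0.12 and several genes near background, small differences could not be called. Slide was separated from genotype in basal forebrain and by the fit with a slide term only. The mismatch between Xist and the sex label was addressed only by leaving out cDKO mice 1 and 3. That setting left the cortex arrays of the 2 genotypes on different slides. Blood left in the tissue was not separated from genotype. The cause of the changes in count was not tested, apart from fewer genes or mice in the settings that leave some out.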
